A study of Danio rerio with 15 samples.

Results

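Core clock genes, 7 of the 5686 genes listed for the zebrafish kidney by name, are described here over the course of acute kidney injury (AKI). Their arms by name are the repressors per1a, per1b, per3 and ciarta, and the activators arntl2, npas2 and clocka. The clocka row is an antisense transcript, not the protein-coding gene, and is kept in the counts over the 7 rows. Members were chosen by gene name, with their values at 1 day post injury (dpi) against uninjured kidneys already known. That comparison is therefore given as a description, with no test, and supports nothing further. All 7 passed the filter on low values, which asked for a value above 0 in at least 3 of the 15 samples.

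Whole kidneys of 6-month-old zebrafish of the AB strain were sequenced as polyA RNA in 5 groups of 3 samples, namely uninjured kidneys and kidneys at 1, 3, 5 and 7 dpi. Per the study's methods, AKI was induced by intraperitoneal injection of the nephrotoxin gentamicin in water, injected fish were kept in individual containers, and only fish with proteinuria at 1 dpi were used. The labels do not say what the uninjured fish received, so the drug, the injection, the housing and the selection cannot be told apart. Fish lived under 14 h of light and 10 h of darkness, and neither the hour of dissection nor the sex of the fish is given in the sources used here. The methods state 3 biological replicates per condition.

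The circadian clock of vertebrate cells is a feedback loop of transcription. The activators, CLOCK or its paralog NPAS2 paired with a BMAL protein, bind E-boxes and switch on the period, cryptochrome and ciart genes, whose proteins in turn inhibit the activators. In zebrafish, clocks in peripheral organs also respond directly to light, and the transcripts of most of these genes oscillate over the day, so that the level in a kidney depends on the hour at which it was taken. Period transcripts are known to respond to glucocorticoids and other acute stimuli as well.

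The values were the authors' FPKM, fragments counted per unit of transcript length and of sequencing depth. FPKM corrects for length, so levels may be set side by side between genes. Between 13876000 and 16368000 reads lay behind the FPKM of a sample, as recovered from the steps of the values. A protein-coding member was covered by 29 reads (per1a) to 12952 reads (ciarta) in a sample. Proximal tubule genes were present in every sample, with cubn at 8.74 to 87.4 FPKM and slc13a3 at 16.1 to 172 FPKM over the 15 samples, so the labelled tissue was met. Markers of other tissues were also present. The summed level of 12 ovary markers was 1.72 to 1766 FPKM in uninjured kidneys, 5.02 to 573 FPKM at 1 dpi, 1.11 to 12.9 FPKM at 3 dpi, 3.04 to 866 FPKM at 5 dpi and 145 to 253 FPKM at 7 dpi. In bulk kidney, fewer cells of a type and less RNA per cell cannot be told apart.

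One of the 3 activator rows is not the gene its name recalls. The row named clocka has the identifier ENSDARG00000097598 and the biotype antisense, and lies on chromosome 20 from 22168487 to 22170421, minus strand (GRCz11, the build in the submitters' processing notes). The length behind its FPKM was 1935 bases, equal to its span, as for an unspliced block. The protein-coding clock gene was not analysed here. Whether the counting used strand is not given in the sources used here, so reads of this transcript and of a gene on the other strand cannot be told apart. The activator arm is therefore read mainly from arntl2, which encodes BMAL2, and npas2, which encodes the CLOCK paralog.

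The other members are protein-coding. In the same build, per1a (ENSDARG00000056885) lies on chromosome 10 from 22841347 to 22862023, minus strand, and per1b (ENSDARG00000012499) on chromosome 7 from 50547395 to 50571221, plus strand. The third period gene, per3 (ENSDARG00000010519), lies on chromosome 11 from 39694894 to 39756935, plus strand. The gene of the CIART repressor, ciarta (ENSDARG00000058094), lies on chromosome 19 from 9009509 to 9021143, minus strand. Of the activators, arntl2 (ENSDARG00000041381) lies on chromosome 18 from 15601115 to 15642344, minus strand, and npas2 (ENSDARG00000016536) on chromosome 5 from 22287886 to 22326924, plus strand. The positions cover whole genes, introns included.

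Of the 4 repressor members, ciarta had the highest mean in each of the 5 groups. CIART is a repressor of the CLOCK and BMAL pair. Its FPKM was 7.12, 2.62 and 8.13 in uninjured kidneys, 155, 239 and 324 at 1 dpi, 6.77, 7.53 and 8.86 at 3 dpi, 7.16, 2.81 and 3.39 at 5 dpi, and 2.39, 2.74 and 4.11 at 7 dpi. Each 1 dpi sample lay above every other sample, and the ranges of the other groups overlapped their neighbours in the order 3 dpi, uninjured, 5 dpi and 7 dpi. The 1 dpi mean of 240 ± 84.7 FPKM was 40.2 times the uninjured mean of 5.96 ± 2.94 FPKM (SD, n = 3 each).

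The period gene per1a had the lowest resting level of the protein-coding members and the largest ratio at 1 dpi. PER1 is a period protein that acts with cryptochromes against the activators. Its FPKM was 0.374, 0.483 and 0.799 in uninjured kidneys, 28.7, 53.7 and 72.96 at 1 dpi, 1.57, 1.52 and 1.39 at 3 dpi, 1.64, 0.585 and 1.21 at 5 dpi, and 0.494, 0.309 and 0.373 at 7 dpi. The 1 dpi mean was 51.8 ± 22.2 FPKM, against 0.552 ± 0.221 FPKM in uninjured kidneys, a ratio of 93.8 (SD, n = 3 each). All 3 samples at 3 dpi still lay above all 3 uninjured samples, while those at 5 and 7 dpi overlapped them. At 3 dpi 1050 of the 5685 genes tested lay wholly above the uninjured range.

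The co-ortholog per1b started from a higher level and showed a smaller ratio. Its FPKM was 2.78, 2.00 and 4.83 in uninjured kidneys, 25.5, 48.4 and 107 at 1 dpi, 3.55, 3.96 and 4.39 at 3 dpi, 3.40, 3.03 and 3.54 at 5 dpi, and 1.12, 0.872 and 2.18 at 7 dpi. The 1 dpi mean of 60.4 ± 42.2 FPKM was 18.9 times the uninjured mean of 3.203 ± 1.46 FPKM (SD, n = 3 each). Only the 1 dpi samples lay wholly above the uninjured range. The 3 dpi and 5 dpi samples did not overlap each other, and both groups lay above all 7 dpi samples. Of the 5685 genes tested, 543 were separated downward from 3 to 5 dpi, 1162 from 3 to 7 dpi and 1231 from 5 to 7 dpi.

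The third period gene, per3, moved over a narrower range. Its FPKM was 2.596, 2.76 and 2.69 in uninjured kidneys, 5.18, 6.73 and 15.4 at 1 dpi, 2.76, 2.41 and 3.27 at 3 dpi, 2.34, 1.82 and 2.09 at 5 dpi, and 0.921, 0.832 and 1.78 at 7 dpi. The uninjured samples were close together, with an SD of 0.0803 FPKM around 2.68 FPKM, and the 1 dpi mean was 3.40 times theirs. In the order 1 dpi, 3 dpi, uninjured, 5 dpi and 7 dpi, only the 3 dpi and uninjured ranges overlapped. Of the 5685 genes tested, 928 were separated downward from uninjured to 5 dpi, and 1231 from 5 to 7 dpi.

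The activator gene arntl2 also had its highest levels at 1 dpi. BMAL proteins are the partners of CLOCK and NPAS2. Its FPKM was 5.08, 3.32 and 3.01 in uninjured kidneys, 5.64, 7.88 and 19.8 at 1 dpi, 2.08, 2.73 and 4.05 at 3 dpi, 2.92, 3.52 and 3.28 at 5 dpi, and 2.80, 1.89 and 2.23 at 7 dpi. The 1 dpi samples lay above the uninjured ones, with the means in a ratio of 2.93. Neighbours in the remaining order of uninjured, 5 dpi, 3 dpi and 7 dpi overlapped, while every 7 dpi sample lay below every uninjured sample. That separation at 7 dpi was found in 1557 of the 5685 genes tested.

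The other activator gene, npas2, had a different course. Its FPKM was 4.65, 4.34 and 4.28 in uninjured kidneys, 3.01, 2.495 and 6.78 at 1 dpi, 1.26, 1.85 and 1.94 at 3 dpi, 1.62, 1.78 and 1.81 at 5 dpi, and 1.11, 0.783 and 1.11 at 7 dpi. Its 1 dpi range enclosed the uninjured one, and the 3, 5 and 7 dpi samples all lay below both. It was the only protein-coding member whose highest mean was in uninjured kidneys. Of the 5685 genes tested, 1402, 928 and 1557 lay wholly below the uninjured range at 3, 5 and 7 dpi.

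**Figure D1:**
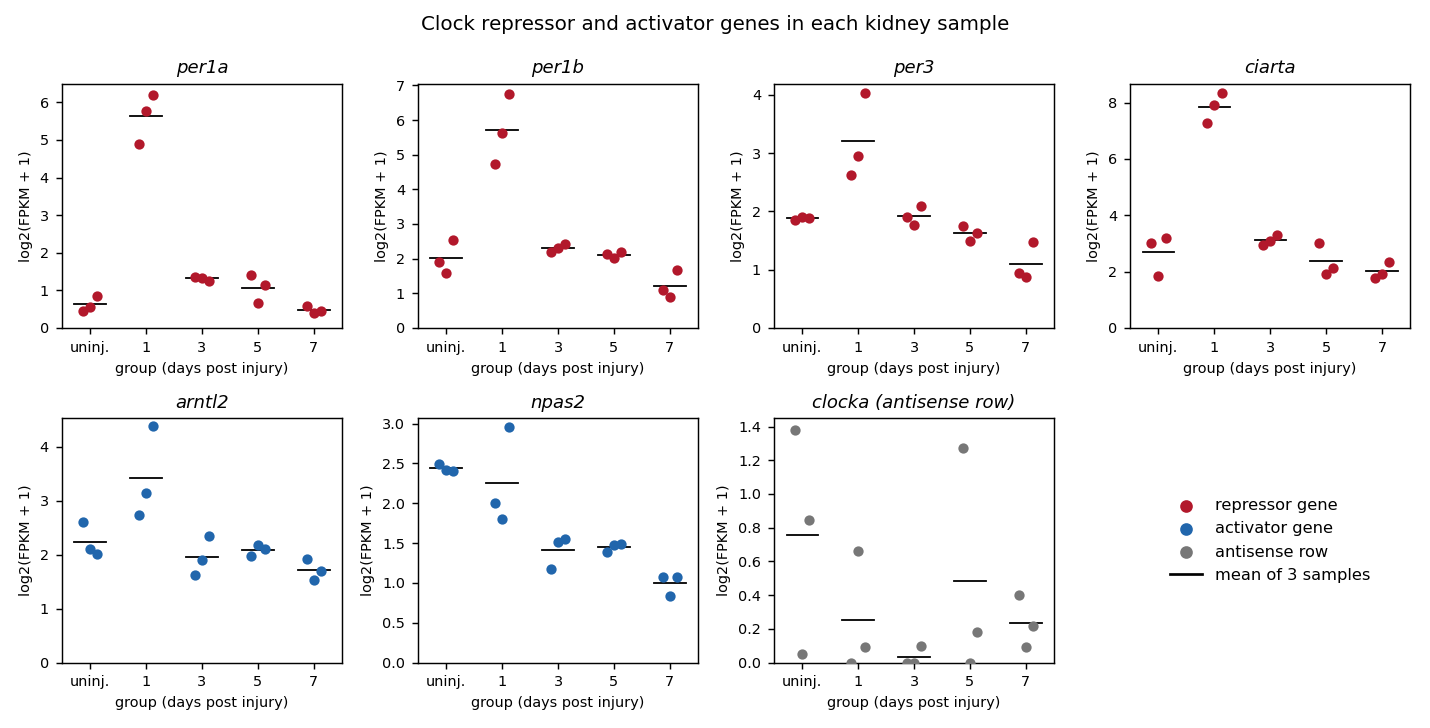
Level of each of the 7 rows as log2(FPKM + 1) (vertical axis, its own scale per panel) in each of the 15 samples, by group along the horizontal axis (uninjured, then 1, 3, 5 and 7 dpi). Points are samples and bars the means of 3. The 4 repressor genes (red) and arntl2 stand highest at 1 dpi, and npas2 lies below the uninjured level from 3 dpi on. The clocka antisense row (grey) is highest in uninjured replicates 1 and 3, 1 dpi replicate 2 and 5 dpi replicate 1.

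The clocka antisense row was read at most 43 times in a sample. Its reads were 43, 1 and 22 in uninjured kidneys, 0, 18 and 2 at 1 dpi, 0, 0 and 2 at 3 dpi, 39, 0 and 4 at 5 dpi, and 10, 2 and 5 at 7 dpi. A count of 0 allows up to 3 reads, which is 0.0947 to 0.106 FPKM in the 4 samples with 0 reads. Each of the 5 groups held at least 1 sample under 3 reads. Every group other than 3 dpi also held one of 10 reads or more, and no order of the groups can be read from it. The 4 samples with 18 reads or more, which hold 122 of its 148 reads, were also the 4 with the highest summed ovary markers, 573 to 1766 FPKM. The other 11 samples had at most 10 reads and at most 253 FPKM of ovary markers, and the 4 samples with 0 reads had at most 21.3 FPKM. Across the 15 samples, which share groups, Pearson's r was 0.83 between log2(reads + 1) and log2(summed ovary markers + 1), a description of a pattern noticed in the data. The part of ovary tissue in this row was not tested.

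**Figure D2:**
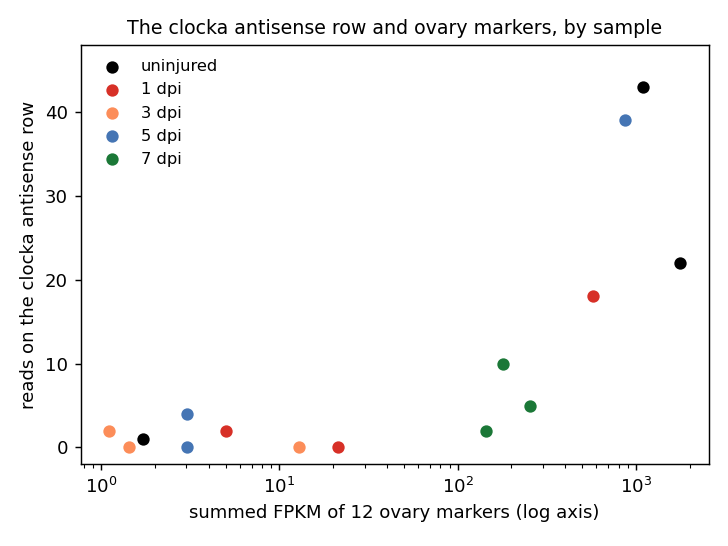
Reads on the clocka antisense row (vertical axis) against the summed FPKM of 12 ovary markers (horizontal log axis), 1 point per sample, coloured by group. The 4 samples with 18 to 43 reads are those with 573 FPKM or more, and come from the uninjured, 1 dpi and 5 dpi groups.

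At 1 dpi, 5 of the 7 rows (the 4 repressors and arntl2) had every sample above every uninjured sample, against 24.6% of the 5685 genes tested. Since this contrast led to the choice of members, nothing is read from that count. On the log2(FPKM + 1) scale the differences from uninjured were 5.16 for ciarta, 5.00 for per1a, 3.69 for per1b, 1.33 for per3, 1.18 for arntl2, -0.18 for npas2 and -0.51 for the antisense row. The added 1 weighs most on per1a, whose uninjured level was under 1 FPKM, and its difference became 6.27 with 0.1 in place of 1. The spread among the 1 dpi samples was large: replicate 3 was the highest of the 3 in 6 of the 7 rows. That sample had 283 FPKM of summed kidney markers, against 190 and 250 FPKM in the others, and 3092 FPKM of summed blood cell markers, against 7801 and 10859 FPKM. Each sum covers 9 markers, of which 3 had positive differences from uninjured kidneys at 1 dpi. The kidney marker slc20a1a stood at 92.8 to 138 FPKM at 1 dpi, against 42.4 to 76.0 FPKM in uninjured kidneys. In contrast lrp2a stood at 1.95 to 11.6 FPKM, against 38.8 to 53.5 FPKM. The sums therefore need not follow the amount of kidney or blood cells. The part of either tissue in the clock gene levels of replicate 3 was not tested.

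The arms were then set against each other within each sample, as the mean log2(FPKM + 1) of the 4 repressors minus that of the activators. Against arntl2 and npas2 alone, the difference was -0.74, -0.78 and -0.09 in uninjured kidneys, 2.52, 3.09 and 2.67 at 1 dpi, 0.70, 0.42 and 0.32 at 3 dpi, 0.40, -0.30 and -0.02 at 5 dpi, and -0.41, -0.16 and 0.10 at 7 dpi. The activators exceeded the repressors in all 3 uninjured samples, and the repressors exceeded the activators in all samples at 1 and 3 dpi, while the sign was mixed at 5 and 7 dpi. The 3 dpi values lay above all uninjured values. Against arntl2 alone, both of these groups had mixed signs and this order was lost. The repressor mean in 3 dpi replicate 3 was 2.271, below arntl2 at 2.337. In uninjured replicate 3 the repressor mean was 2.116, above arntl2 at 2.003 (log2 levels). There per1a stood at 0.848, and without it the repressor mean lay above the mean of arntl2 and npas2. In 3 dpi replicate 3 ciarta stood at 3.302, and without it the repressor mean lay below the mean of arntl2 and npas2. The sign at 3 dpi was therefore mixed without ciarta. With the antisense row counted as an activator too, as the names would have it, the difference averaged -0.0096 in uninjured kidneys, then 3.62 on day 1, 1.03 on day 3, 0.45 on day 5 and 0.22 on day 7. All samples from 1 to 5 dpi then had a positive difference.

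At 3 dpi the average repressor level was above, and the average activator level below, that of uninjured kidneys. The repressor mean was 2.17 ± 0.09 at 3 dpi, against 1.80 ± 0.32 in uninjured kidneys, and the mean of arntl2 and npas2 was 1.68 ± 0.27 at 3 dpi, against 2.34 ± 0.19 in uninjured kidneys (log2 levels, SD, n = 3 each). The ranges of the repressor mean overlapped between these groups, and those of the activator mean did not. That separation came from npas2, since arntl2 overlapped at 2.08 to 4.05 FPKM, against 3.01 to 5.08 FPKM in uninjured kidneys. Among the repressors only per1a lay wholly above the uninjured range. Of the 5685 genes tested, 1402 lay wholly below the uninjured range at 3 dpi and 1050 wholly above it. At 7 dpi the repressor mean was 1.20 ± 0.25 and the activator mean 1.36 ± 0.16, again with an overlap of the uninjured range for the repressors only. No test was run on these scores.

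**Figure D3:**
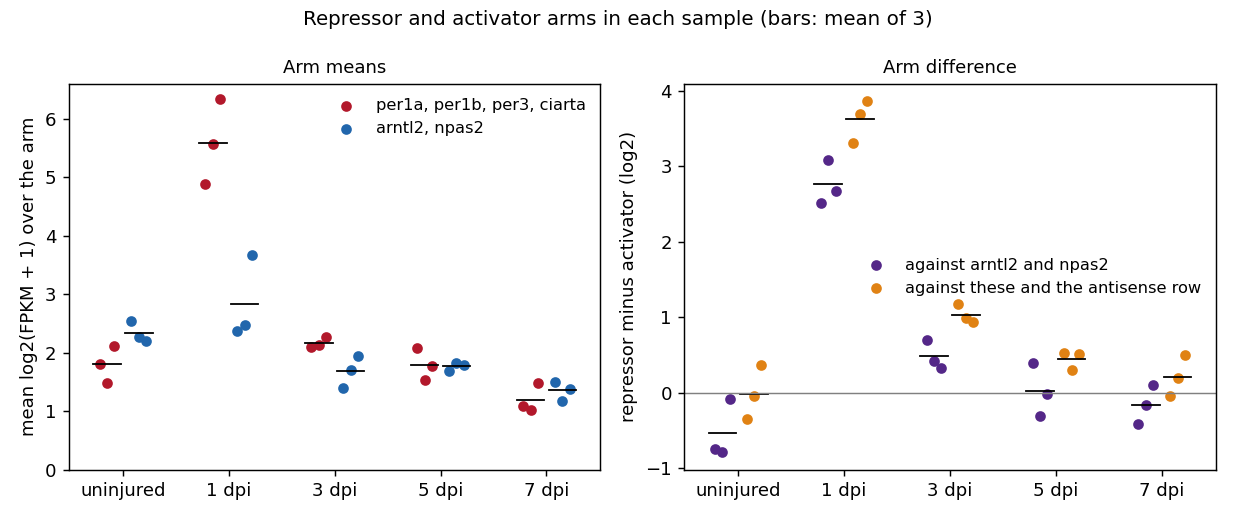
Left, mean log2(FPKM + 1) of the 4 repressor genes (red) and of arntl2 and npas2 (blue) in each sample. Right, repressor mean minus activator mean in each sample, with the activator arm taken as arntl2 and npas2 (purple) or with the antisense row added (orange). Groups run from uninjured to 7 dpi, points are samples and bars means of 3. The purple values are below 0 in all uninjured samples (-0.09 in replicate 3) and above 0 in all samples at 1 and 3 dpi. Against arntl2 alone, not drawn, the uninjured and 3 dpi groups both had mixed signs. The purple value also changed sign in uninjured replicate 3 without per1a, and in 3 dpi replicate 3 without ciarta (not drawn).

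At 3 dpi, 2 of the 7 rows passed the test against uninjured kidneys, whose samples also stand in the contrast that led to the choice of members. By limma on log2(FPKM + 1), with Benjamini-Hochberg adjustment over all genes and a threshold of 0.05, 13.3% of all genes passed. That share depended on single samples, since 50 of the 5685 genes passed without 3 dpi replicate 2 and 1678 without uninjured replicate 2. The repressor per1a rose, to 1.496 ± 0.0917 FPKM at 3 dpi, against 0.552 ± 0.221 FPKM in uninjured kidneys (log2 difference 0.69, SE 0.17, limma adjusted p = 0.045). The activator npas2 fell, to 1.69 ± 0.368 FPKM at 3 dpi, against 4.42 ± 0.198 FPKM in uninjured kidneys (log2 difference -1.02, SE 0.21, limma adjusted p = 0.032). The other 5 rows had log2 differences between -0.73 and 0.43 that did not pass. The median difference was 0.05 over the 7 rows and -0.13 over all genes, a median that quantile normalization moved to 0.08; relative to the median, npas2 stood at -0.89 by the main scaling and -0.77 by quantile normalization, and per1a at 0.82 and 0.86. Both calls were lost when any 1 sample other than uninjured replicate 2 was left out, with limma adjusted p of up to 0.13 for per1a and 0.10 for npas2, while over all 6 such fits the log2 differences stayed between 0.61 and 0.80 for per1a and between -1.09 and -0.90 for npas2. Of all genes, those fits that lost the calls passed 50 to 361, against 757 with all samples. The npas2 call was also lost under quantile normalization (limma adjusted p = 0.081) and that of per1a with an added value of 0.1 (0.056), with genes averaging at least 1 FPKM (0.054) and in a fit on all 15 samples (0.087). Without uninjured replicate 2 the antisense row passed as well (log2 difference -1.08, limma adjusted p = 0.0068). The log2 difference of per1a was 1.34 with 0.1 added, and 1.498 by limma voom on the recovered reads.

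At 5 dpi only npas2 passed, as 1 of 7 rows beside 8.16% of all genes. It fell to 1.74 ± 0.0982 FPKM at 5 dpi, against 4.42 ± 0.198 FPKM in uninjured kidneys (log2 difference -0.99, SE 0.17, limma adjusted p = 0.030). The repressors had log2 differences of 0.45 for per1a, 0.09 for per1b, -0.26 for per3 and -0.33 for ciarta, none of which passed. All 3 samples of per3 at 5 dpi lay below the uninjured range, but its limma adjusted p was 0.35. In 928 of the 5685 genes tested, all 5 dpi samples lay below the uninjured range. The npas2 call was lost on leaving out any 1 of the 6 samples (limma adjusted p 0.073 to 0.12), with its log2 difference at -1.01 to -0.96 in those fits. In the same fits 0 genes in all passed without uninjured replicate 1 or 2 or 5 dpi replicate 2, 11 without 5 dpi replicate 3, and at most 189 otherwise, against 464 with all samples. Under quantile normalization the call was lost as well (limma adjusted p 0.098).

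At 7 dpi npas2 again was the only member that passed, with 17.2% of all genes past the threshold. Its level fell to 1.00 ± 0.190 FPKM at 7 dpi, a ratio of 0.227 to the uninjured mean of 4.42 ± 0.198 FPKM (log2 difference -1.44, SE 0.17, limma adjusted p = 0.016). The call was lost on leaving out 7 dpi replicate 1, 2 or 3 (limma adjusted p 0.075, 0.058 and 0.072) and held on leaving out any uninjured sample, and the log2 difference stayed between -1.48 and -1.36 throughout. Without 7 dpi replicate 1, 2 or 3, the genes passing in all were 0, 7 and 0, against 975 with all samples, and 1916 passed without uninjured replicate 2. All 7 rows had negative differences, with a median of -0.68 against -0.22 over all genes, and -0.06 over all genes after quantile normalization. Relative to the median, npas2 stood at -1.22 by either scaling. The repressor per3 was at -0.78 with a limma adjusted p of 0.053, and all 3 of its samples lay below the uninjured range. So did those of npas2 and of arntl2 (log2 difference -0.52, limma adjusted p = 0.17), and those of 1557 of the 5685 genes tested. The per3 difference passed in 4 of the alternatives, among them limma voom on the recovered reads (0.041). Without uninjured replicate 2, the uninjured sample with the lowest ciarta level and with 1.72 FPKM of ovary markers, ciarta passed as well (log2 difference -1.10, limma adjusted p = 0.025), as did the antisense row (-0.88, 0.023). The summed level of 9 kidney markers was 116 to 132 FPKM at 7 dpi and 114 to 138 FPKM at 3 dpi, against 343 to 445 FPKM in uninjured kidneys. The sum is carried by abundant tubule genes. At 7 dpi 6 of the 9 markers were called lower, and 2, wt1a and wt1b, were called higher than in uninjured kidneys. The part of the tissues behind these markers in the npas2 difference was not tested.

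Between 7 and 3 dpi all 4 repressors fell, and neither arntl2 nor npas2 passed on the deposited scale. Both groups stand outside the 1 dpi contrast behind the choice of members. Earlier results of these data were known, however, so the 4 calls may not be independent of that choice. Of the 7 rows, 4 were called lower at 7 dpi and 0 higher, beside 16.7% of all genes called in either direction and 6.49% called lower. The level of per1a fell to 0.392 ± 0.0940 FPKM at 7 dpi, against 1.496 ± 0.0917 FPKM at 3 dpi (log2 difference -0.84, SE 0.12, limma adjusted p = 0.0058). That of ciarta fell to 3.08 ± 0.911 FPKM at 7 dpi, against 7.72 ± 1.06 FPKM at 3 dpi (-1.11, SE 0.22, limma adjusted p = 0.022). For per1b the level fell to 1.39 ± 0.697 FPKM at 7 dpi, against 3.96 ± 0.422 FPKM at 3 dpi (-1.09, SE 0.24, limma adjusted p = 0.028). That of per3 fell to 1.18 ± 0.523 FPKM at 7 dpi, against 2.81 ± 0.431 FPKM at 3 dpi (-0.83, SE 0.22, limma adjusted p = 0.045). For each of the 4 genes every 7 dpi sample lay below every 3 dpi sample, as also for npas2. Of all 5685 genes tested, 1162 were separated in this direction and 1289 in the other.

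The activators between the same groups were closer together. The log2 difference was -0.24 for arntl2 (SE 0.24, limma adjusted p = 0.50), whose ranges overlapped, and -0.42 for npas2 (SE 0.17, limma adjusted p = 0.12), whose 7 dpi samples all lay below the 3 dpi ones. After quantile normalization npas2 did pass (log2 difference -0.58, limma adjusted p = 0.033). The difference between the arms in this change was not tested. The antisense row stood at 0.20 (limma adjusted p = 0.14), from 10, 2 and 5 reads at 7 dpi and 0, 0 and 2 reads at 3 dpi. The median difference was -0.83 over the 7 rows and 0.00 over all genes.

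The 7 dpi against 3 dpi calls depended on single samples to different degrees. That of per1a held without any 1 of the 6 samples (limma adjusted p 0.017 to 0.032), and its log2 difference was -1.71 with 0.1 added and -1.94 by limma voom. Leaving out 7 dpi replicate 3 kept all 4 calls. Without 3 dpi replicate 1, 2 calls were left (per1a and ciarta), and without 3 dpi replicate 2 or 3, or 7 dpi replicate 1 or 2, only that of per1a was left. The log2 differences without 1 sample stayed between -0.93 and -1.31 for per1b, -0.72 and -1.02 for per3, and -0.99 and -1.29 for ciarta. A fit on all 15 samples, whose error is pooled over all 5 groups, called 0 of the 7 rows (limma adjusted p 0.097 to 0.12 for the repressors). A fit on the 12 samples without 1 dpi, added after seeing the data, called per1a, per1b and per3, and left ciarta at a limma adjusted p of 0.095. Among all genes, 582 were higher and 369 lower at 7 dpi, and quantile normalization turned this split to 558 higher and 570 lower and called 5 of the 7 rows, the 4 repressors and npas2. The genes called in all ranged between 342 without 3 dpi replicate 3 and 744 without 3 dpi replicate 1, against 951 with all samples, and 347 to 631 passed without each of the other 4 samples. Ovary markers moved in the opposite direction, with 11 of the 12 called higher at 7 dpi (145 to 253 FPKM in sum at 7 dpi, against 1.11 to 12.9 FPKM at 3 dpi), while 0 of 15 pancreas markers had a positive difference and 1 was called lower (307 to 334 FPKM in sum at 7 dpi, against 274 to 894 FPKM at 3 dpi). The part of either tissue in the repressor differences was not tested.

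**Figure D4:**
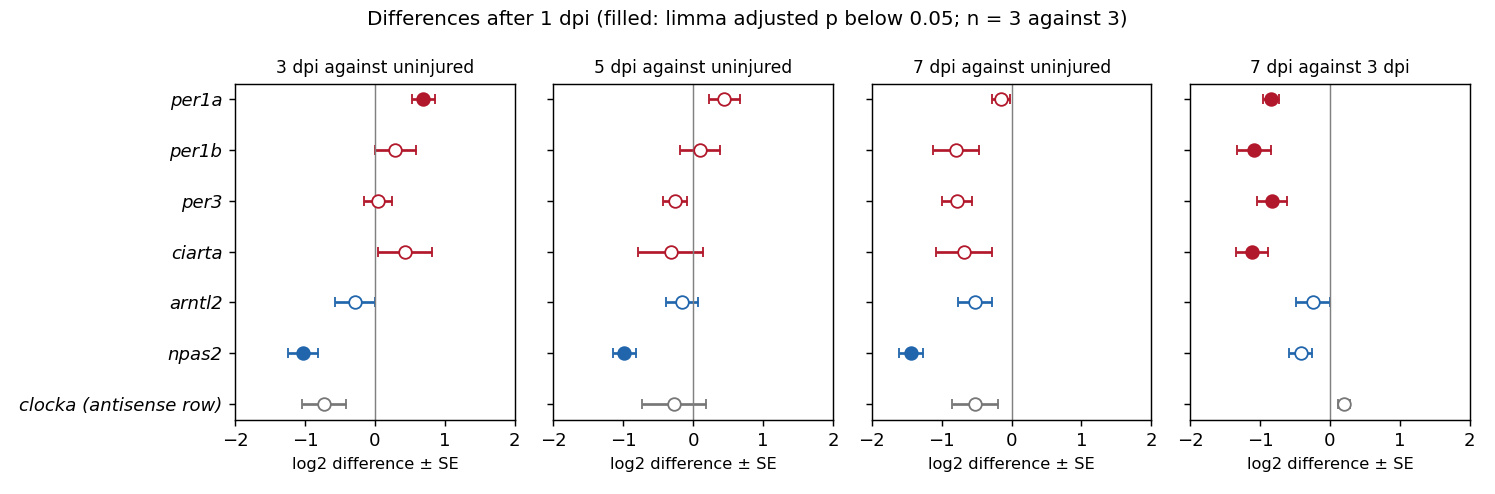
Log2 difference with its SE for each of the 7 rows (vertical axis) in 4 comparisons of 3 against 3 samples, on the log2(FPKM + 1) scale. Filled points passed limma at an adjusted p of 0.05: per1a and npas2 at 3 dpi, npas2 at 5 and 7 dpi against uninjured kidneys, and per1a, per1b, per3 and ciarta at 7 dpi against 3 dpi.

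The comparisons of 5 with 3 dpi and of 7 with 5 dpi gave no call. Between 5 and 3 dpi 0 of the 7 rows passed limma, 0 had an unadjusted p under 0.05, and 0.0704% of all genes passed. The largest difference was that of ciarta, -0.75 (SE 0.32, limma adjusted p = 0.27), with 7.16, 2.81 and 3.39 FPKM at 5 dpi, against 6.77, 7.53 and 8.86 FPKM at 3 dpi. Between 7 and 5 dpi 0 of the 7 rows and 0% of all genes passed limma, although 4 rows (per1a, per1b, per3 and npas2) and 1277 genes had an unadjusted p under 0.05. In those 4 rows and in arntl2 every 7 dpi sample lay below every 5 dpi sample, as in 1231 of the 5685 genes tested. By limma voom on the recovered reads 0 rows passed in either comparison. Between 7 and 5 dpi, 453 of the 5685 genes passed without 5 dpi replicate 1, and 0 without any other 1 sample. In each of these fits 0 of the 7 rows passed.

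Other genes of the clock repressor list gave a broader view of that arm. Besides the 4 members, 10 further genes of that list had values, namely ciartb, per2, cry1aa, cry1ab, cry1ba, cry1bb, cry2, cry5, bhlhe40 and bhlhe41. No activator gene beyond the members was listed. The cry genes encode cryptochromes, or in the case of cry5 a photolyase of the same family, and bhlhe40 and bhlhe41 encode E-box repressors. The counts keep cry5 because it is on the list, not as a repressor, and repression by the other listed genes was not tested. At 1 dpi 9 of the 10 had positive differences from uninjured kidneys, and cry1ba had a negative one. The paralog ciartb stood at 36.7 to 54.4 FPKM at 1 dpi, against 2.69 to 3.65 FPKM in uninjured kidneys, and cry2 at 55.7 to 164 FPKM, against 7.26 to 13.6 FPKM. The light-responsive per2 had 21.5 to 67.0 FPKM at 1 dpi, against 8.57 to 9.93 FPKM in uninjured kidneys. In contrast cry1ba had 27.4 to 48.7 FPKM at 1 dpi, against 76.9 to 90.1 FPKM in uninjured kidneys. These values share the contrast behind the choice and are descriptive.

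From 3 dpi on, these 10 genes followed the members in part. At 3 and at 5 dpi 0 of the 10 passed limma against uninjured kidneys, and 2 and 3 of them had an unadjusted p under 0.05, beside 38% and 30.3% of all genes. At 7 dpi 3 of the 10 were called lower than in uninjured kidneys, beside 12.4% of all genes. They were cry1ab (-1.02, limma adjusted p = 0.032), bhlhe40 (-0.94, 0.040) and cry1ba (-0.61, 0.047). No repressor member was called in that comparison. Without 7 dpi replicate 1 or 3, 0 genes in all passed, so these 3 calls depended on single samples. Between 7 and 3 dpi, with 6.49% of all genes called lower, 2 of the 10 fell, cry2 to 5.94 FPKM on average at 7 dpi, against 13.2 FPKM at 3 dpi (-1.04, limma adjusted p = 0.022), and per2 to 5.29 FPKM at 7 dpi, against 11.3 FPKM at 3 dpi (-0.96, 0.037). In that comparison 9 of the 10 had negative differences, with a median of -0.67 beside 0.00 over all genes. The exception was cry1bb, at 0.01.

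Neighbouring layers of the clock are given by their counts, to be read beside the 6.49% of all genes called lower between 7 and 3 dpi. The 7 nuclear receptor genes listed (nr1d and ror families, which repress and activate bmal and clock transcription) had 4 called lower between 7 and 3 dpi, with a median of -0.78. Of the 10 output genes (dbp, tef, hlf and nfil3 families) 1 was called lower in that comparison, with a median of -0.51. Of the 6 genes of clock protein turnover 2 were called lower, and of the 8 light-regulated genes, 4 of which (per2, cry1aa, cry5 and tefa) are on the other lists too, 1 was called lower, namely per2, already counted among the repressors. With lists of 6 to 10 genes, a count of 1 is near the share of all genes.

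**Figure D5:**
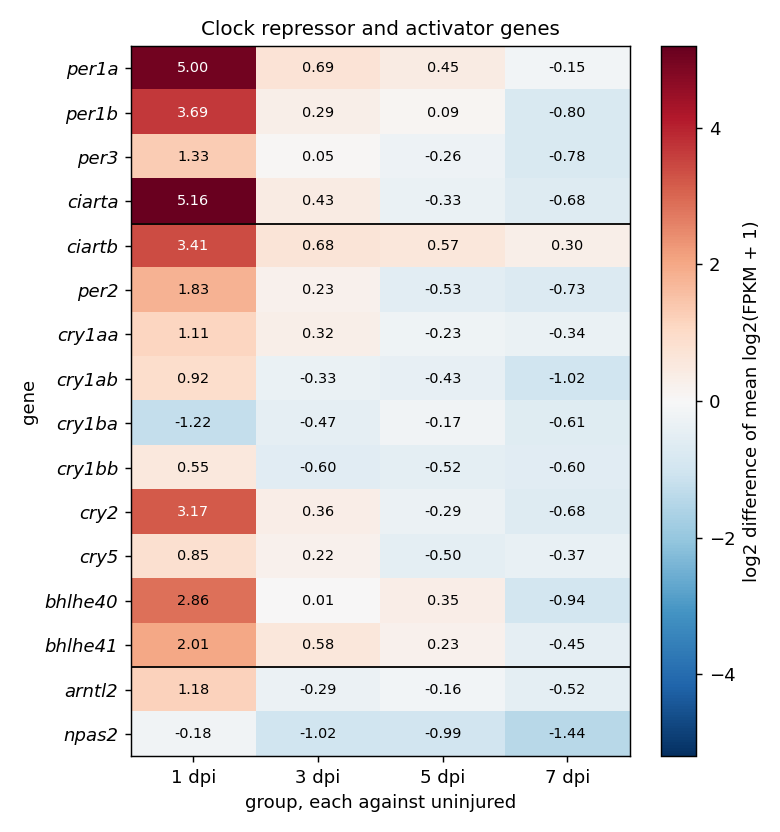
Log2 difference from uninjured kidneys at 1, 3, 5 and 7 dpi (colour and printed value, log2(FPKM + 1) scale). Rows are 14 genes of the repressor list and 2 activator genes. Lines separate the 4 repressor members (top), the 10 other genes of that list and the activators arntl2 and npas2 (bottom). Values at 1 dpi run up to 5.16 for ciarta. Of the repressor list, cry1ba alone is below 0 at 1 dpi, and ciartb alone is above 0 at 7 dpi.

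Courses over the 4 time points were compared as the root mean square (RMS) of the differences between 2 genes' log2 differences from uninjured kidneys, over 4 group means, which share the uninjured samples and are dominated by 1 dpi. Among members, arntl2 was nearest to per3 (0.23), although they belong to opposite arms. The pair per1a and ciarta was at 0.49, per1a and per1b at 0.78, and npas2 was 0.99 from arntl2 and 2.89 from per1a. Among 4300 other listed genes with a symbol, the nearest to per1a were fosb, an AP-1 subunit, at 0.27, then dbpb, a clock output factor, at 0.36, and plin2, a lipid droplet protein, at 0.37. The nearest to ciarta were gls2b, a glutaminase, at 0.31, hunk at 0.40 and dbpb at 0.49. For per1b they were slc25a25a, a mitochondrial carrier, at 0.30, lcat, an enzyme of cholesterol esterification, at 0.30, and cry2, of the repressor list, at 0.33. The smaller course of per3 was closest to tob1a (0.08), shroom1 (0.10) and dym (0.12), and that of arntl2 to kidins220b (0.05), stard13b (0.08) and atg16l2 (0.08). The nearest to npas2 was cx32.3, a connexin, at 0.05, then grtp1b (0.16) and shisa2 (0.17).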

How the data were processed

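The authors deposited FPKM for 5686 genes in 15 samples, made per their methods and the submitters' processing notes with StringTie 1.3.3b, featureCounts 1.5.0-p3 and build GRCz11. The authors' group code per gene was not used, and their own calls rested on DESeq2. The table holds selected genes, which took 19.2% (5 dpi replicate 3) to 34.2% (1 dpi replicate 3) of the reads of a sample. Shares of called genes, medians over all genes, quantile normalization and adjusted p therefore depend on that selection.

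Samples were grouped by their treatment labels, and columns of values were matched to samples by title. Genes above 0 FPKM in at least 3 of 15 samples (5685) were tested with limma 3.58.1 in R 4.3.3 (lmFit, eBayes with trend) on log2(FPKM + 1), 6 samples per fit, two-sided, with Benjamini-Hochberg adjustment over all genes and a threshold of 0.05. Fold changes on this scale understate those of low genes. Whole reads were recovered for 100% of genes, within 0.02 of a whole read, and given to limma voom as an alternative. Each may be a pair, since sequencing was paired-end. Intervals of 0 counts cover counting error only. The fitting step was run on simulated reads with known changes, with the same dispersion for every gene and no shifts of whole samples. Such reads check the code only, and cannot show how the calls depend on single samples.

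Members and lists were chosen with earlier results of these data known. All members are named, with the other listed clock repressor and activator genes, counts for further clock lists, and the 3 nearest courses per protein-coding member, since the antisense row has too few reads for a course. Alternatives covered the added value, filters, scaling, the samples in the fit, the variance trend, a replicate block and leaving out each sample. Protein and DNA sequences were not used here.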

Additional observations from a re-analysis of the deposited data

Results flagged for a closer look

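The courses of 4 repressors differed between time points by the direct test of 7 against 3 dpi. The log2 differences were -0.84 for per1a, -1.09 for per1b, -0.83 for per3 and -1.11 for ciarta (limma, adjusted p as given above). In each gene 3 of 3 samples at 7 dpi lay below all 3 samples at 3 dpi. The same separation held for npas2, and for 1162 of the 5685 genes tested. No explanation was tested.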

How the results depend on the processing

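Of the 7 rows, 2 passed at 3 dpi, 1 at 5 dpi, 1 at 7 dpi (each against uninjured kidneys) and 4 between 7 and 3 dpi. At 3 dpi the number called was 1 with 0.1 added, with a mean of at least 1 FPKM, under quantile normalization and in the fit on all 15 samples, and 0 to 3 without 1 sample. At 5 dpi it was 0 under quantile normalization and 0 without any 1 sample. At 7 dpi it was 2 with a mean of at least 1 FPKM, in the fit without 1 dpi, without a variance trend and by limma voom, and 0 to 3 without 1 sample. Between 7 and 3 dpi it was 0 in the fit on all 15 samples and 1 to 4 without 1 sample. Between 5 and 3 dpi and between 7 and 5 dpi it was 0 under each alternative run.

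Whether shared replicate numbers pair the samples was not settled, since pairs with different numbers were not compared. The deviations of same-numbered samples correlated above 0.1 in 0 to 2 of 3 pairs. Between 5 dpi and uninjured kidneys r was 0.51, 0.77 and -0.35, and between 1 dpi and uninjured kidneys -0.21, -0.78 and -0.38. With the replicate block 0 rows passed at 3, 5 and 7 dpi against uninjured kidneys, where 0 genes passed in all (757, 464 and 975 without it), and 3 passed between 7 and 3 dpi (525 genes, against 951).

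Reversed signs concerned differences that had not passed. Quantile normalization gave arntl2 0.013 at 3 dpi, and -0.089 between 5 and 3 dpi, where npas2 was at -0.18, and at -0.070 by median-of-ratios scaling. For the antisense row limma voom gave 0.27 between 7 and 5 dpi. Leaving out 1 sample gave ranges of -0.039 to 0.12 for per3 at 3 dpi and, at 5 dpi, of -0.12 to 0.36 for per1b, -0.27 to 0.025 for arntl2 and -0.67 to 0.037 for the antisense row. Between 5 and 3 dpi the ranges were -0.035 to 0.32 for arntl2 and -0.082 to 0.11 for npas2, and between 7 and 5 dpi -0.49 to 0.15 for the antisense row. The causes were not tested.

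Quantile normalization turned the split of all called genes at 3 dpi to 638 higher and 268 lower (364 and 393 in the main scaling) and at 7 dpi to 357 and 214 (272 and 703). Depth limits the antisense row most, with 4 samples at 0 reads.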
